A study of Mus musculus with 27 samples.

Results

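Fatty acid desaturases place double bonds in fatty acyl chains, and elongases lengthen those chains. The set described here holds 10 genes of these pathways, chosen by name from the 54532 genes of a count table made from mouse dorsal skin: the stearoyl-CoA desaturases Scd1, Scd2, Scd3 and Scd4, the desaturase Fads2, the elongases Elovl3, Elovl5, Elovl6 and Elovl7, and Hacd2. The label of the set calls them desaturases and elongases, and Hacd2 is neither: it is a 3-hydroxyacyl-CoA dehydratase, which works beside the elongases in the same cycle. RNA sequencing was done on 27 libraries of C3H mouse skin in 3 groups of 9. The Blank group was left untreated. The Vehicle group was given the solvent of TDM10842 on the skin surface, and the TDM group was given TDM10842 itself, a thyroid hormone receptor agonist. Both treatments came as 2 applications of 60 µL, at 0 and 24 h. The sources used here state no age for the mice, and the labels do not say that the 9 libraries of a group come from 9 animals, so the p-values below measure the spread between libraries.

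Fatty acid elongation runs in the endoplasmic reticulum as a cycle of condensation, reduction, dehydration and a second reduction. The Elovl proteins catalyse the condensation, each with its own preferred chain length, and Hacd proteins catalyse the dehydration. Stearoyl-CoA desaturases convert saturated acyl-CoA into monounsaturated acyl-CoA, and skin uses the products in sebum, in the barrier lipids of the epidermis and in stored fat. In mice, loss of Scd1 or of Elovl3 is known to disturb sebaceous glands and the hair coat.

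The 4 Scd genes lie next to each other on chromosome 19, within 204422 bases from 44203288 to 44407709, in the coordinates of the deposited table, which match GRCm38. Scd3, Scd2 and Scd4 are on the plus strand and Scd1 is on the minus strand at 44394451 to 44407709. They are close copies, which bears on how well reads can be told apart: over aligned coding bases, Scd1 was 91.5% identical to Scd3, 90.4% to Scd2 and 84.7% to Scd4. The longest run of identical bases that Scd1 shared with Scd3 was 185 bases. A stretch of 60 coding bases from one exon of each gene, taken from GENCODE M21 on GRCm38, shows where the copies cannot be told apart. Scd1, Scd2 and Scd3 are identical in it, and capitals mark the 3 bases in which Scd4 differs from Scd1.
Scd1, chr19:44401744-44401803, minus strand: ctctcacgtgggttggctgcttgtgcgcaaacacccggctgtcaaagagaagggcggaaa
Scd2, chr19:44299704-44299763, plus strand: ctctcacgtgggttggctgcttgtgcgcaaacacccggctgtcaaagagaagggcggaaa
Scd3, chr19:44235866-44235925, plus strand: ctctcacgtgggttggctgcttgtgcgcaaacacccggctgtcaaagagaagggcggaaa
Scd4, chr19:44339005-44339064, plus strand: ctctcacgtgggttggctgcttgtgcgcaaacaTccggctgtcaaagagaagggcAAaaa

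A second stretch, near the start of the coding sequence, shows a place where the copies differ more than in the first, with capitals again marking bases that differ from Scd1. Scd2 differs from Scd1 at 21 of 60 bases, Scd3 at 16 and Scd4 at 31.
Scd1, chr19:44406701-44406760, minus strand: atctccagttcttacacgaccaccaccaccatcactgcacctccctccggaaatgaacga
Scd2, chr19:44294904-44294963, plus strand: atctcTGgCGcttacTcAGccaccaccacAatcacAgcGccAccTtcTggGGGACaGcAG
Scd3, chr19:44215402-44215461, plus strand: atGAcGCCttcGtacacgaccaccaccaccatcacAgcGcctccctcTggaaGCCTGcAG
Scd4, chr19:44333994-44334053, plus strand: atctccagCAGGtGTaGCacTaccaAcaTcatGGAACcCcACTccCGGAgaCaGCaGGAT

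Shared sequence was also counted across the whole transcripts. Of all windows of 50 bases, 4.66% in Scd1, 4.01% in Scd2, 6.66% in Scd3 and 6.32% in Scd4 also occurred in a transcript of another gene. Hacd2 shared 7.02% of its windows with Gm7908, and Elovl3, Elovl5 and Elovl7 shared none. Elovl6 shared 4.59% of its windows with transcripts of many other genes, and Fads2 0.161% with Fads3. The sources used here do not say how reads that match more than 1 gene were counted, and these are shares of windows, not of reads. Scd1 was far more abundant than its neighbours, with a median in TDM of 1711 on the authors' FPKM scale beside 22.7 for Scd3 and 0.134 for Scd4, so the counts of Scd3 and Scd4 are uncertain where Scd1 reads could have been assigned to them, which was not tested.

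The other 6 genes lie apart, in the coordinates of the table. Elovl3 (46131897 to 46135307, plus strand) and Fads2 (10064164 to 10101503, minus strand) are also on chromosome 19. Elovl6 is on chromosome 3 (129532355 to 129638495), Elovl5 on chromosome 9 (77917364 to 77984519), Elovl7 on chromosome 13 (108214404 to 108285683) and Hacd2 on chromosome 16 (35022428 to 35109177), all 4 on the plus strand. RefSeq promoter sequences on GRCm38.p6 were found for 7 of the 10 genes. The 250 bases before the start are shown for Elovl6, which rose with TDM, and for Elovl5 and Scd3, which fell. Capitals mark matches, on either strand, to 4 motifs: AGGTCA, the half-site of nuclear receptors such as the thyroid hormone receptor, CCAAT, the NF-Y box, CACGTG, the E box bound by SREBP and other factors, and TATAAA.
Elovl6, chr3:129532136-129532385, plus strand: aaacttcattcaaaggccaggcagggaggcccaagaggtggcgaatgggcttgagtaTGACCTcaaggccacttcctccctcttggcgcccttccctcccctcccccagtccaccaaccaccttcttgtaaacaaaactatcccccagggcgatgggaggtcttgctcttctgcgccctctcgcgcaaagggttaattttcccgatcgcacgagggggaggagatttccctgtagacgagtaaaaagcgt
Elovl5, chr9:77917115-77917364, plus strand: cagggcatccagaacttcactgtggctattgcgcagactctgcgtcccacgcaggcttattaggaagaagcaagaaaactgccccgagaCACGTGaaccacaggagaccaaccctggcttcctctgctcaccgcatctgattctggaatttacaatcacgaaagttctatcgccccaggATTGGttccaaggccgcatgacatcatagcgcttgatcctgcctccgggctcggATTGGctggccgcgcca
Scd3, chr19:44203038-44203287, plus strand: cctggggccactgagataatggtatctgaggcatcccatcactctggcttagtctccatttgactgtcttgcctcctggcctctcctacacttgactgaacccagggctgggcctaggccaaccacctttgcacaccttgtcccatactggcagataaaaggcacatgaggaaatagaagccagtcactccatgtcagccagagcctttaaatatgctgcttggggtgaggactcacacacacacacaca

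Elovl6 held AGGTCA on the opposite strand, starting 193 bases before the start. Elovl5 held CACGTG 161 bases before the start and CCAAT on the opposite strand 71 and 17 bases before it. The other 5 of the 7 windows, which run to 50 bases past the start, held none of the 4. No matches overlapped. Of 32851 promoters of the same length, 16.3% held AGGTCA, 37.4% CCAAT, 7.15% CACGTG and 13.6% TATAAA, so these matches are frequent among all genes and are a description only.

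Sequencing depth was even, from 15412332 to 17599066 counted reads per library, and 9 of the 10 genes passed the filter on low counts. Values are CPM, counts scaled by TMM to a common library size, which are compared within a gene, and changes are log2 fold changes from edgeR's quasi-likelihood test with Benjamini-Hochberg adjustment over 17232 genes. A gene is called changed when its adjusted p is under 0.05. The 10 genes took up a median of 0.809% of all reads in Blank, 0.829% in Vehicle and 1.07% in TDM, most of them from Scd1. In bulk skin, fewer cells of a type and less RNA per cell cannot be told apart.

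TDM skin differed from Vehicle skin in 6 of the 9 genes tested. Scd3, Elovl3, Hacd2 and Elovl5 fell, and Elovl6 and Fads2 rose. Over all genes tested, 23.7% were called in this comparison, 12.0% higher and 11.7% lower. Against Blank, TDM skin differed in 7 of the 9, the same 6 in the same directions and Scd2, which rose, beside 16.2% of all genes (11.6% higher and 4.63% lower). Both comparisons use the same TDM libraries. Vehicle against Blank called 0 of the 9 by edgeR, beside 2.76% of all genes (0.894% higher and 1.86% lower), with 1 at an unadjusted p under 0.05 and 1 called by DESeq2, in both cases Elovl7. The other 8 had log2 changes between Vehicle and Blank from -0.30 for Scd3 to 0.31 for Elovl3, with adjusted p from 0.416 to 0.957.

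**Figure D1:**
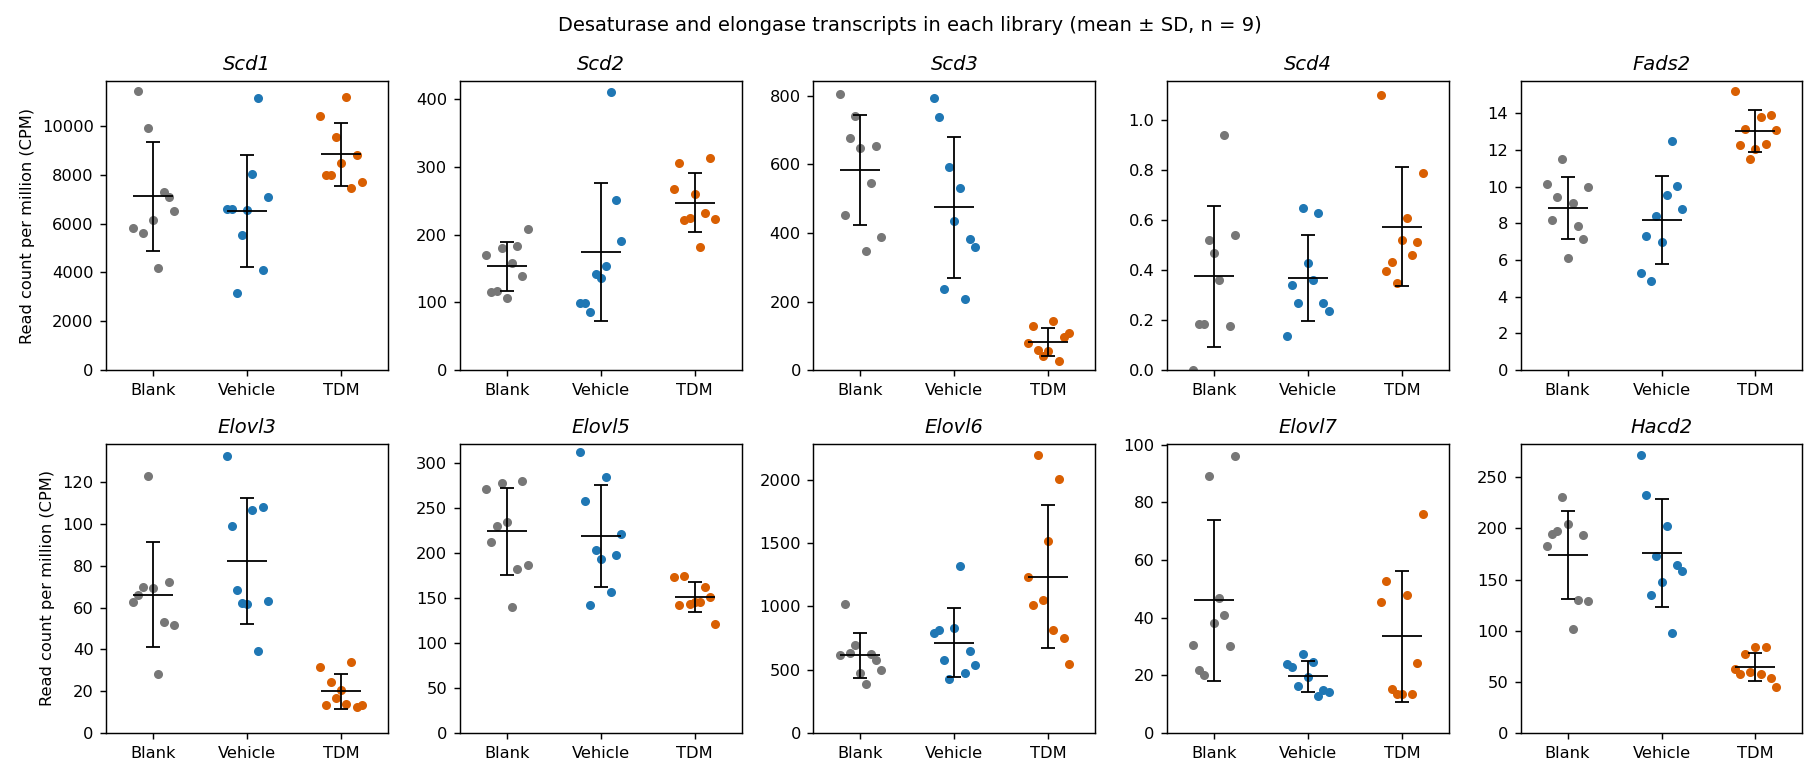
Read counts in CPM (linear axes from 0) of each of the 10 genes in every library of Blank, Vehicle and TDM, 1 point per library, with lines for the group mean and its SD over 9 libraries. The TDM points of Scd3 (25.8 to 144 CPM), Elovl3 (12.2 to 34.2 CPM) and Hacd2 (45.3 to 84.4 CPM) all lie under the lowest Vehicle point of the same gene.

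Scd3 was the desaturase that fell. It ranged from 348 to 803 CPM in Blank (median 646), from 207 to 793 CPM in Vehicle (median 434) and from 25.8 to 144 CPM in TDM (median 80.1). The highest TDM library was under the lowest library of either other group. The TDM mean of 81.9 ± 40.0 CPM (SD, n = 9) was 0.173 times the Vehicle level by edgeR, a log2 change of -2.53 ± 0.30 (SE, adjusted p = 4.06e-06). Against Blank the log2 change was -2.83 ± 0.30 (adjusted p = 1.06e-06).

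Scd1, the main desaturase of mouse skin and liver, did not follow Scd3. It ranged from 4195 to 11423 CPM in Blank (median 6520), from 3144 to 11159 CPM in Vehicle (median 6581) and from 7477 to 11201 CPM in TDM (median 8475). All 9 TDM libraries were above the Vehicle median, yet the ranges overlapped: Vehicle 7, at 11159 CPM, was near the highest TDM library, and Vehicle 6, at 8026 CPM, was above the lowest. The log2 change against Vehicle was 0.44 ± 0.19 (adjusted p = 0.0988), with a 95% interval of 0.06 to 0.82 that is not adjusted for the number of genes. Without Vehicle 7 it was 0.57 (adjusted p = 0.0189). Vehicle 7 is singled out by its high value, so leaving it out raises the change. Over all libraries left out 1 at a time, the change ran from 0.33 to 0.57 and the adjusted p from 0.0189 to 0.211. Against Blank the log2 change was 0.31 ± 0.19 (adjusted p = 0.286).

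Scd2, known mainly as the desaturase of brain and of early skin development, ranged from 106 to 209 CPM in Blank (median 158), from 85.9 to 410 CPM in Vehicle (median 142) and from 181 to 313 CPM in TDM (median 231). Of the 9 TDM libraries, 8 were above the whole Blank range and all 9 were above the Vehicle median, while the highest value of all was again Vehicle 7. The log2 change was 0.51 ± 0.22 against Vehicle (adjusted p = 0.0984) and 0.69 ± 0.22 against Blank (adjusted p = 0.0349). Without Vehicle 7, singled out by that value, the change against Vehicle was 0.78 (adjusted p = 0.00226). Over all libraries left out 1 at a time, it ran from 0.40 to 0.78, with adjusted p from 0.00226 to 0.19. The call against Blank was lost without any one of 8 libraries (Blank 2, 3, 5 and 8, and TDM 1, 2, 5 and 8), with adjusted p from 0.054 to 0.0721.

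Scd4, known from mouse heart, was barely detected. The Blank libraries held 0 to 15 reads of it, the Vehicle libraries 2 to 10 and the TDM libraries 6 to 18, and it did not pass the filter. The single library at 0 allows up to 3 counts. The medians were 0.36 CPM in Blank, 0.34 CPM in Vehicle and 0.51 CPM in TDM, with overlapping ranges and no test.

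Fads2 is the delta-6 desaturase, which acts on polyunsaturated fatty acids and, in human sebaceous glands, on palmitate. It ranged from 6.11 to 11.5 CPM in Blank (median 9.12), from 4.85 to 12.5 CPM in Vehicle (median 8.40) and from 11.5 to 15.2 CPM in TDM (median 13.1). All TDM libraries were above all Blank libraries, and Vehicle 7 was the 1 Vehicle library that reached into the TDM range. Fads2 rose by 0.67 ± 0.14 on the log2 scale against Vehicle (adjusted p = 0.00283) and by 0.56 ± 0.14 against Blank (adjusted p = 0.00675). The level was low, with 72 to 249 reads per library.

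Among the elongases, Elovl3 fell the most. Elovl3 extends saturated and monounsaturated chains to very long ones and is known from sebaceous glands, hair follicles and brown fat. It ranged from 28.3 to 123 CPM in Blank (median 66.0), from 39.3 to 133 CPM in Vehicle (median 68.6) and from 12.2 to 34.2 CPM in TDM (median 16.9). TDM did not overlap Vehicle and overlapped Blank only at Blank 6, the lowest Blank library at 28.3 CPM. The log2 change was -2.04 ± 0.26 against Vehicle (adjusted p = 1.17e-05) and -1.73 ± 0.26 against Blank (adjusted p = 7.89e-05).

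Elovl6, which extends palmitate towards stearate and so feeds the Scd enzymes, moved the other way. It ranged from 385 to 1019 CPM in Blank (median 612), from 425 to 1317 CPM in Vehicle (median 646) and from 546 to 2194 CPM in TDM (median 1049). The ranges overlapped, and the TDM libraries were widely spread: 8 of the 9 were above the Vehicle median and TDM 9 was below it. Elovl6 rose by 0.79 ± 0.24 against Vehicle (adjusted p = 0.0198) and by 1.01 ± 0.24 against Blank (adjusted p = 0.00485).

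Elovl5, the elongase of polyunsaturated chains, fell by a smaller amount. It ranged from 140 to 280 CPM in Blank (median 230), from 142 to 312 CPM in Vehicle (median 203) and from 121 to 175 CPM in TDM (median 146). All 9 TDM libraries were below both other medians, with overlapping ranges. The log2 change was -0.53 ± 0.14 against Vehicle (adjusted p = 0.00801) and -0.57 ± 0.14 against Blank (adjusted p = 0.00499).

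Elovl7 is an elongase of saturated chains. It ranged from 20.1 to 96.1 CPM in Blank (median 38.2), from 13.0 to 27.4 CPM in Vehicle (median 19.3) and from 13.4 to 75.9 CPM in TDM (median 24.2). The TDM libraries lay apart from each other, with 4 libraries between 13.4 and 15.2 CPM and 4 between 45.4 and 75.9 CPM, and TDM 8 between them. The log2 change was 0.77 ± 0.35 against Vehicle (adjusted p = 0.107) and -0.46 ± 0.35 against Blank (adjusted p = 0.399). Vehicle against Blank gave -1.23 ± 0.35 (adjusted p = 0.0519), while the authors' deposited table gives a log2 change of -1.24 with an adjusted p of 0.000895. This is 1 of 27 comparisons of a tested gene, and in the other 26 the authors' deposited table is on the same side of 0.05.

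Hacd2, the dehydratase, fell. It ranged from 101 to 230 CPM in Blank (median 193), from 98.1 to 272 CPM in Vehicle (median 164) and from 45.3 to 84.4 CPM in TDM (median 59.3), without overlap between TDM and either other group. Its log2 change was -1.44 ± 0.17 against Vehicle (adjusted p = 5.34e-06) and -1.43 ± 0.17 against Blank (adjusted p = 8.02e-06). In all, 3 of the 9 tested genes did not overlap between TDM and Vehicle, all lower in TDM (Scd3, Elovl3 and Hacd2), beside 0.575% of all genes (0.261% higher and 0.313% lower). Between TDM and Blank 3 did not overlap, Scd3 and Hacd2 lower and Fads2 higher, beside 2.18% of all genes (1.86% higher and 0.313% lower). All 9 overlapped between Vehicle and Blank, where 0.128% of all genes did not (0.0348% higher and 0.0929% lower).

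**Figure D2:**
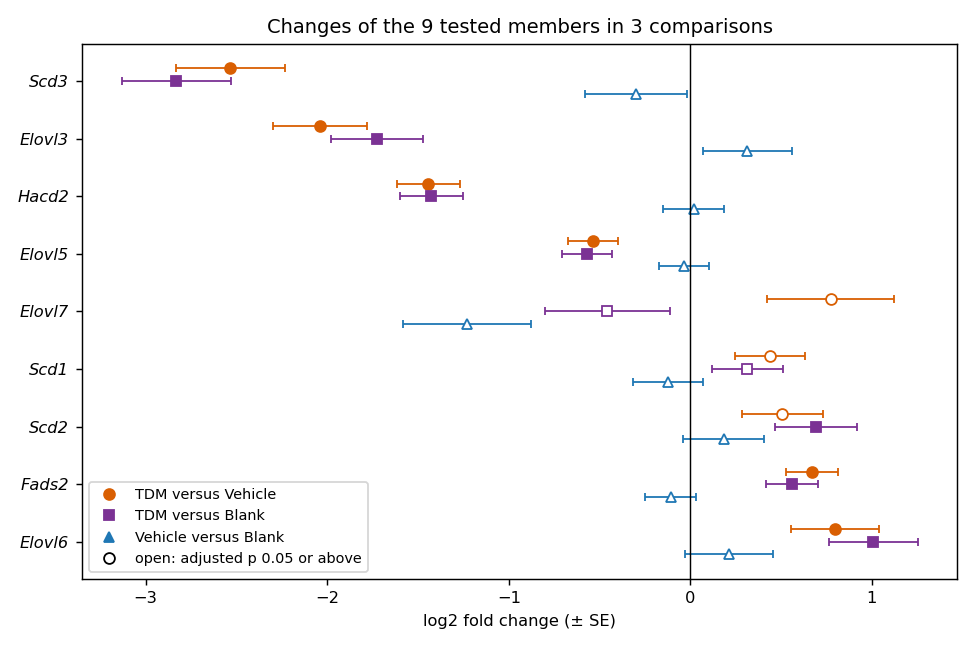
Log2 fold change of the 9 tested genes by edgeR in the comparisons TDM versus Vehicle, TDM versus Blank and Vehicle versus Blank, with bars for 1 SE and open symbols where the adjusted p was 0.05 or above. TDM versus Vehicle runs from -2.53 for Scd3 to 0.79 for Elovl6, and all Vehicle versus Blank symbols are open, with Elovl7 the farthest from 0 at -1.23.

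Each library holds the members that moved apart, so their ratio can be read within it, free of depth and scaling. The log2 ratio of Scd1 to Scd3 counts ranged from 2.85 to 4.66 in Blank, from 3.05 to 5.75 in Vehicle and from 5.96 to 8.18 in TDM. The TDM range did not overlap the others, and the mean ratio was 8.52-fold higher than in Vehicle and 9.99-fold higher than in Blank. By a two-sided exact permutation test the p of each was 4.11e-05, the smallest that 9 against 9 libraries can give, and 0.000185 after adjustment over 36 ratio tests. Scd3 made up a median of 7.41% of the reads of the 4 Scd genes in Blank, 6.86% in Vehicle and 0.744% in TDM, and Scd1 made up 89.9%, 90.7% and 96.6%.

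In counts, Scd2 was under Scd3 in Blank and above it in TDM. The mean log2 ratio of Scd2 to Scd3 was -1.91 ± 0.60 (SD, n = 9) in Blank, -1.49 ± 1.22 in Vehicle and 1.76 ± 0.83 in TDM. The TDM libraries were all above 0, at 0.33 to 3.17, while Blank reached -0.89 at most and Vehicle reached 0.99. The difference from Vehicle was 3.25 (exact permutation test, adjusted p = 0.000228) and from Blank 3.67 (adjusted p = 0.000185). Scd1 to Scd2 was not called: the difference between TDM and Vehicle was -0.16 (exact permutation test, adjusted p = 0.646), with within-group SDs of 0.37 and 0.64.

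Among the elongases, the log2 ratio of Elovl3 to Elovl6 ranged from -3.95 to -2.50 in Blank, from -3.74 to -2.58 in Vehicle and from -6.49 to -5.27 in TDM. The TDM libraries again did not overlap the others, and the difference was -2.79 from Vehicle and -2.66 from Blank (exact permutation tests, adjusted p = 0.000185 each). Elovl5 to Elovl6 differed by -1.24 from Vehicle and -1.47 from Blank (adjusted p = 0.000228 each, exact permutation tests), with a small overlap in both. Elovl6 held a median of 68.1% of the reads of the 4 Elovl genes in Vehicle and 83.1% in TDM, and Elovl3 held 8.30% and 1.37%. Of the 36 ratio tests, 17 passed after adjustment: 8 of 12 between TDM and Vehicle, 6 of 12 between TDM and Blank, and 3 of 12 between Vehicle and Blank, all with Elovl7. The ratios share genes, so these counts are not of separate results. Every ratio with Scd3 or Elovl3 is among the 8, including Scd3 over Scd4, where Scd4 had few reads. Ratios of other gene pairs were not tested.

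**Figure D3:**
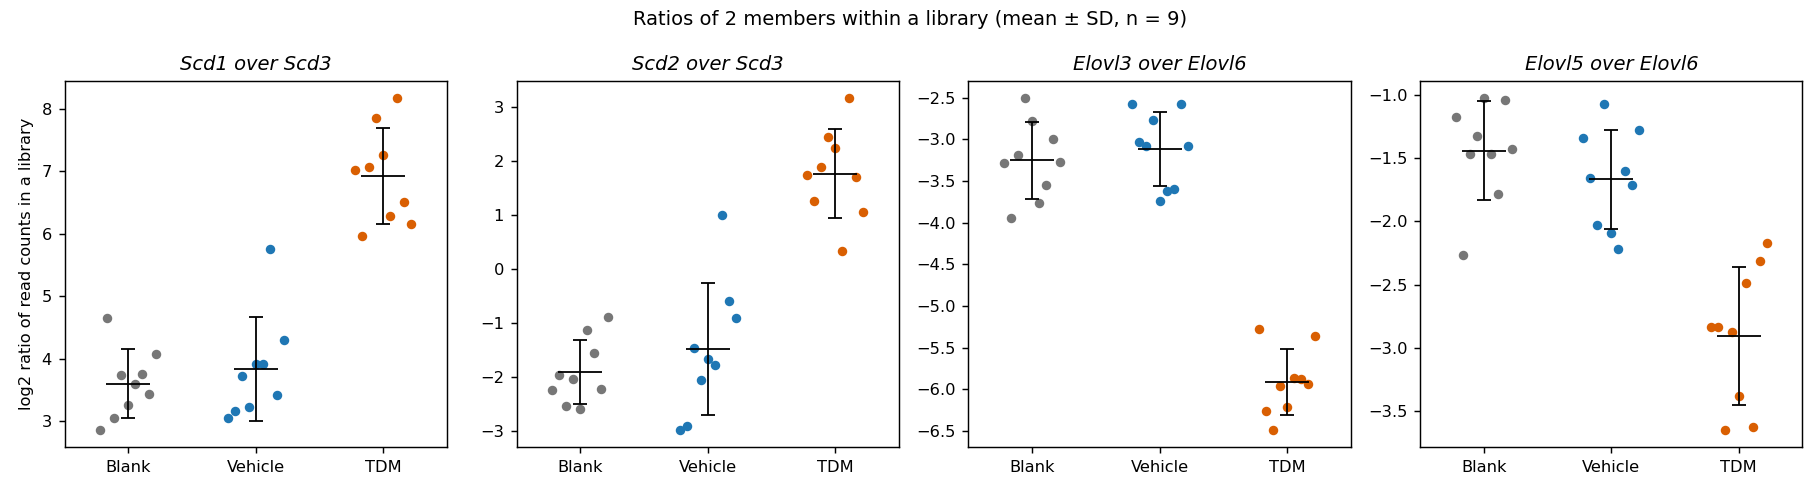
Log2 count ratio within each library for Scd1 over Scd3, Scd2 over Scd3, Elovl3 over Elovl6 and Elovl5 over Elovl6, 1 point per library with the group mean and SD. For Scd1 over Scd3 the TDM points lie from 5.96 to 8.18, above all others, and for Elovl3 over Elovl6 from -6.49 to -5.27, below all others.

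On a scale per transcript length, the authors' FPKM, Scd1 was the highest of the 10 genes in every group, with medians of 1363 in Blank, 1358 in Vehicle and 1711 in TDM, and no overlap with the next gene. Scd3 came second in Blank at 183 FPKM and in Vehicle at 123 FPKM, overlapping Elovl6 in both. In TDM Elovl6 was second at 160 FPKM, without overlap with the gene below it, and Scd3 had rank 5 at 22.7 FPKM. The middle of the order, from Elovl5 to Scd2, was not separated in Blank, since each gene overlapped the next. Scd4 was last in all groups.

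Within groups, some of the genes varied together from library to library. With group means subtracted, 9 of 36 pairs passed after adjustment over the 36 (permutation test within groups, 100000 permutations), all with positive r. The share of such pairs among all genes was not computed, so this count describes these pairs only. Elovl5 and Hacd2 had r = 0.849 (rho = 0.832, permutation p = 1e-05, adjusted p = 0.00012), and r = 0.785 without the 2 libraries farthest from the median of Elovl5. Elovl3 and Hacd2 had r = 0.840 (rho = 0.820, permutation p = 1e-05, adjusted p = 0.00012) and r = 0.762 without the 2 farthest. The p of 1e-05 is the smallest that the permutations can give. Elovl3, Elovl5, Elovl6 and Hacd2 made up 6 of the 9 pairs. Elovl6, which rose with TDM, went up and down between libraries of one group together with Hacd2, Elovl3 and Elovl5, which fell.

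**Figure D4:**
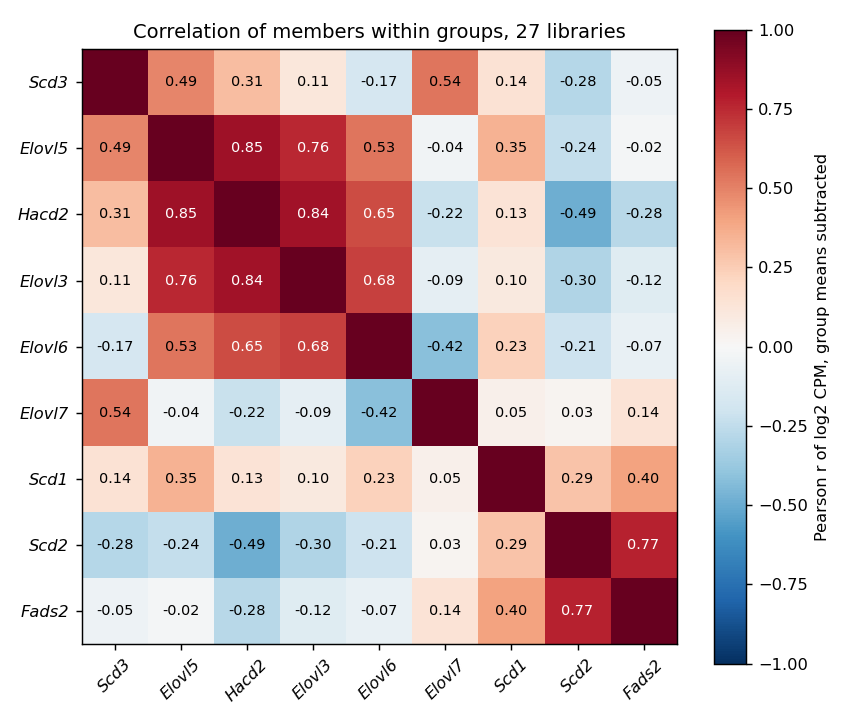
Pearson r of log2 CPM between the 9 tested genes over 27 libraries after subtracting group means. The block of Elovl3, Elovl5, Elovl6 and Hacd2 holds r from 0.534 to 0.849, and Scd2 with Fads2 has r = 0.769.

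Elovl6 and Hacd2 had r = 0.653 over the 27 libraries (rho = 0.689, permutation p = 0.00022, adjusted p = 0.00132; r = 0.657 without the 2 libraries farthest from the median), with r = 0.577 in Blank, 0.544 in Vehicle and 0.936 in TDM. Scd3 and Hacd2 did not keep one relation across groups: r was 0.788 in Blank, 0.935 in Vehicle and -0.698 in TDM, each over 9 libraries. Scd3 with Elovl3 gave 0.755, 0.714 and -0.699 in the same order. Of the 9 pairs that passed, Scd3 with Elovl5 (r = 0.491) gave 0.885, 0.871 and -0.388, and it did not pass by Spearman's rho (permutation test, adjusted p = 0.106). Scd3 with Elovl7 (r = 0.536), also among the 9, gave -0.248, 0.842 and 0.828. The values by group are a description, and the difference between groups was not tested. Summed suprabasal keratinocyte markers were 714 to 1157 CPM in TDM 3, 4, 5 and 7. They were 4306 to 6031 CPM in TDM 1, 2, 6 and 9, and 2332 CPM in TDM 8. Scd3 was also lowest in TDM 3, 4, 5 and 7, at 25.8 to 59.8 CPM, beside 80.1 to 144 CPM in the other TDM libraries. Hacd2 was highest in TDM 3, 5 and 7, at 77.1 to 84.4 CPM. Whether this split bears on the r values in TDM was not tested. Scd2 with Fads2 had r = 0.769 (rho = 0.650, permutation p = 0.00019, adjusted p = 0.00132; r = 0.668 without the 2 farthest), made of 0.607 in Blank, 0.900 in Vehicle and 0.0688 in TDM, with Vehicle 7 the highest Vehicle library for both.

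**Figure D5:**
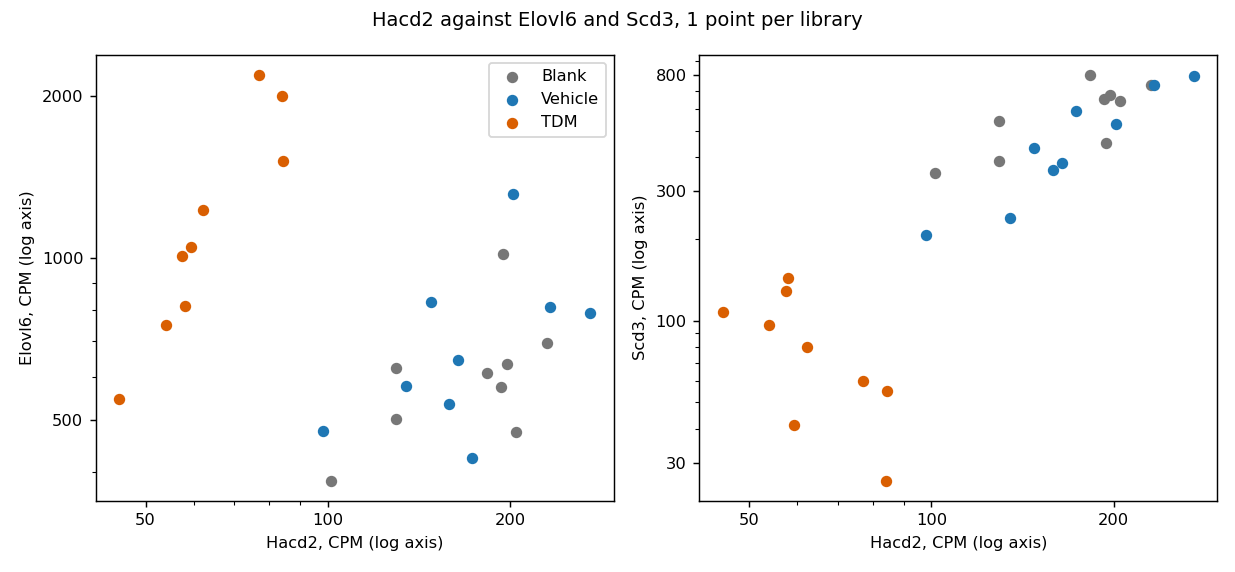
CPM of Elovl6 and of Scd3 against CPM of Hacd2 (log axes), 1 point per library, coloured by group. With Hacd2, Elovl6 rises in all 3 groups (r = 0.577, 0.544 and 0.936 in Blank, Vehicle and TDM), while Scd3 rises in Blank and Vehicle (r = 0.788 and 0.935) and falls in TDM (r = -0.698).

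Vehicle 7 stood apart for several members. It was the highest Vehicle library for Scd1, Scd2 and Fads2 and the lowest for Scd3, Elovl3, Elovl7 and Hacd2. Blank 6 was the lowest Blank library for 6 of the 10 genes, and Vehicle 3 the lowest Vehicle library for 4.

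Genes whose library-to-library pattern was nearest to each member were picked as the 2 with the highest r over the 27 libraries with group means subtracted, among 14124 genes, so these values carry no test. Scd1 was nearest to Fasn (r = 0.816), the fatty acid synthase, and Acaca (0.806), acetyl-CoA carboxylase. Scd3 was nearest to Cyp2b23 (0.837) and to Awat1 (0.834), a wax ester synthase of sebaceous glands. Elovl3 was nearest to Fa2h (0.896), fatty acid 2-hydroxylase, and Naa30 (0.895). Elovl5 was nearest to Mgll (0.909), monoglyceride lipase, and Ermp1 (0.888). For Elovl6 the gene given is Acad9 (0.938). Hacd2 was nearest to Cyp51 (0.907), an enzyme of cholesterol synthesis, and Dhrs7 (0.901). Elovl7 was nearest to Mpzl3 (0.959) and Abca12 (0.929), the lipid transporter of the epidermal barrier. Scd2 was nearest to Lfng (0.888) and Ttyh3 (0.880), and Fads2 to Fam168b (0.853) and Apcdd1 (0.835).

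Other enzymes of elongation and desaturation changed in both directions. Of 21 listed, 19 were tested, and 2 rose and 6 fell between TDM and Vehicle, with a median log2 change of -0.21 beside 0.01 over all genes. Of all genes, 12.0% rose and 11.7% fell in this comparison. Fads1, the delta-5 desaturase, rose by 0.45 ± 0.12 (adjusted p = 0.0085) and Elovl1, an elongase of very long saturated chains, by 0.55 ± 0.20 (adjusted p = 0.0498). Elovl1 had fallen in Vehicle against Blank, at -0.82 ± 0.20 (adjusted p = 0.0344). The 6 that fell were Cyb5b (-0.46), Fads6 (-0.56), Hacd1 (-0.81), Fa2h (-0.79), Cyb5r1 (-0.37) and Hsd17b12 (-0.44), the last being a reductase of the elongation cycle. Against Blank, Fads6 (-0.75), Elovl4 (-0.64) and Cyb5b (-0.26) fell and 0 rose by edgeR, beside 4.63% of all genes lower and 11.6% higher.

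Fatty acid synthesis, the step before elongation, gave 1 gene higher and 3 lower of 22 between TDM and Vehicle. Over all genes, 12.0% were higher and 11.7% lower. Thrsp, a long-known thyroid hormone responsive gene, rose by 1.55 ± 0.42 (adjusted p = 0.0109) and against Blank by 1.90 ± 0.43 (adjusted p = 0.00284). Acacb, the acetyl-CoA carboxylase of the mitochondrial surface, fell without overlap, from 200 to 393 CPM in Vehicle to 94.6 to 182 CPM in TDM (log2 change -1.11 ± 0.15, adjusted p = 2.75e-05). Mlxipl, a carbohydrate-responsive transcription factor, gave -0.67 and Insig2, which retains SREBP in the endoplasmic reticulum, gave -0.41, and both fell. Against Blank, 2 of the 22 were higher and 2 lower, beside 11.6% and 4.63% of all genes. Slc25a1, the mitochondrial citrate carrier, rose by 0.63 with Thrsp, and Acacb (-0.94) and Insig2 (-0.61) fell. Mlxipl rose in Vehicle against Blank, by 0.63, the 1 gene of 22 called there, beside 0.894% of all genes higher and 1.86% lower. Fasn was not called (0.55 ± 0.33, adjusted p = 0.229).

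Of 29 tested acyl-CoA synthetases and lipid ester enzymes, 3 rose and 7 fell between TDM and Vehicle, 3 rose and 8 fell against Blank, and 0 were called between Vehicle and Blank by edgeR. Over all genes, 12.0% rose and 11.7% fell in the first comparison, 11.6% and 4.63% in the second, and 0.894% and 1.86% in the last. The 4 with the smallest p in both TDM comparisons were the same genes. Slc27a4, a fatty acid transporter of the epidermis, had a log2 change of -1.13 against Vehicle and -0.90 against Blank. Acsl4, which activates arachidonate, gave -0.75 and -0.58, and Lpcat3, which puts polyunsaturated chains into phospholipids, gave -0.77 and -0.81. Agpat2, an enzyme of triglyceride synthesis, rose by 1.03 and 1.29.

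Markers of some cell types moved with the groups, and the counts below are to be read beside all genes. Of all genes, 12.0% were higher and 11.7% lower in TDM than in Vehicle, and 11.6% and 4.63% against Blank. In Vehicle against Blank, 0.894% were higher and 1.86% lower. Of 17 sebaceous gland markers, of which 2 (Elovl4 and Fa2h) are also among the other elongation and desaturation enzymes and 6 among the ester enzymes, 2 were higher and 6 lower in TDM than in Vehicle, and 0 were higher and 6 lower than in Blank by edgeR. Their summed level was 3043 to 5565 CPM in Blank, 2774 to 6144 CPM in Vehicle and 2650 to 4803 CPM in TDM. Of 19 tested skeletal muscle markers 18 were lower in TDM than in Vehicle and 1 was lower than in Blank, with sums of 30999 to 74981 CPM in Blank, 29418 to 102198 CPM in Vehicle and 20818 to 53124 CPM in TDM. Hair matrix and root sheath markers were higher in 7 of 12 against Vehicle and 11 of 12 against Blank, with sums of 106 to 314 CPM in Blank, 156 to 693 CPM in Vehicle and 300.1 to 883 CPM in TDM. The Vehicle sums above 253 CPM were those of Vehicle 7 and Vehicle 8. Adipocyte markers had 1 of 14 lower in both comparisons with TDM, with sums of 9327 to 17714, 5845 to 16205 and 7229 to 12544 CPM in Blank, Vehicle and TDM. Basal keratinocyte markers were lower in 6 of 7 and suprabasal ones higher in 3 of 8 in TDM against Vehicle. Against Blank, 0 of 7 basal markers were called by edgeR, and 1 of 8 suprabasal markers was lower. Of the suprabasal markers, 4 of 8 were lower in Vehicle than in Blank. Suprabasal sums were 1521 to 6812 CPM in Blank, 864 to 2608 CPM in Vehicle and 714 to 6031 CPM in TDM. Of 5 tested brown adipocyte markers, 1 was higher and 2 lower in TDM than in Vehicle, and 1 was higher than in Blank. No marker of any list was at 0 in every library, and Ucp1 and Tnnc2 had means under 1 CPM. The epidermal keratin genes Krt5 and Krt10, which mark the labelled tissue, had means of 2279 and 1008 CPM.

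With the mean log2 level of the sebaceous markers as a covariate, Scd3 and Hacd2 kept their calls in both TDM comparisons. Elovl3 kept its call against Vehicle, and against Blank it gave -0.94 (adjusted p = 0.0562). Elovl5 lost its call in both, at -0.28 (adjusted p = 0.0679) and -0.08 (adjusted p = 0.785). Against Blank, Fads2 (0.45, adjusted p = 0.211) and Scd2 (0.15, adjusted p = 0.816) also lost theirs. With the muscle markers as a covariate, Scd3, Elovl3 and Hacd2 kept their calls against Vehicle, and Elovl6 (0.89, adjusted p = 0.13), Fads2 (0.41, adjusted p = 0.184) and Elovl5 (-0.49, adjusted p = 0.165) did not. Against Blank, Scd2 lost its call with the muscle markers too (0.43, adjusted p = 0.153). The scores themselves differed between Blank, Vehicle and TDM, with means of 6.90, 6.66 and 6.43 for the sebaceous score and 10.55, 10.95 and 10.01 for the muscle score. These fits therefore cannot tell the group from the score, and why a call was lost was not tested. Elovl6 lost its call with the muscle score although its change was not smaller (0.89 beside 0.79).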

How the data were processed

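RNA of dorsal skin was sequenced from libraries made with a TruSeq kit, per the labels' protocols. The submitters' processing notes name Bowtie 0.12.2 and mm9, while the coordinates in the table are GRCm38 (5 of the 10 genes have exactly those of GENCODE M21). Read counts per gene were deposited by the authors, in columns that the file headers name as counts. For the 10 genes they are whole numbers, and the headers do not speak of normalization. FPKM values in the same table were computed by the authors, as were the log2 fold changes and adjusted p-values in the authors' deposited table. The protocol text speaks of retinas, and the tissue label and the marker genes are of skin.

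Counts were tested with edgeR 4.0.16 (filterByExpr with minimum count 10 and minimum total 15, TMM, robust quasi-likelihood fit, 27 libraries in 1 fit), adjusted over 17232 genes. SE is the size of the log2 change over the root of F. FPKM gave only the order of levels. Ratios used log2 of counts plus 0.5 and exact permutation over 48620 splits. Correlations used log2 CPM with prior count 2. Scd4 was not tested, so 36 pairs entered in place of the planned number over all 10. Tools were R 4.3.3, DESeq2 1.42.0, limma 3.58.1, Python 3.11.15, scipy 1.17.1 and Biopython 1.88. The fits were tested on simulated data. A planned search for motifs in proteins was not run.

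The genes, the lists of enzymes and markers and the tests were chosen with earlier results of these data known. Named besides the set are called genes of the list of other elongation and desaturation enzymes, the 4 called genes with the smallest p per comparison in the other lipid lists, and the 2 genes nearest to each member. For Elovl6, 1 of these 2 is not reported here. Alternatives were DESeq2, RLE scaling, no filter, 2 groups alone, a replicate block, limma on log2 FPKM, marker scores as covariates, and leaving out libraries. Counting error is small at these depths, except for Scd4.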

Additional observations from a re-analysis of the deposited data

Results flagged for a closer look

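Of 30 groups of 9 libraries (10 genes in 3 groups), 3 held a library whose gap to the next was large for the range of its group by Dixon's criterion at 95%, where chance flags about 1.5. Elovl3 was 122.9 CPM in Blank 4, with the next Blank library at 72.4 CPM. Elovl6 was 1019 CPM in Blank 2, with the next at 696 CPM. Elovl6 was 1317 CPM in Vehicle 6, with the next at 826.8 CPM. Leaving out any one library changed no call of Elovl3 or Elovl6.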

How the results depend on the processing

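Scd3 and Hacd2 kept their direction and call in both TDM comparisons under all 37 alternatives run for each, as did Elovl3 against Vehicle and Elovl6 against Blank, and no call reversed. With the muscle score, 3 genes of the set were called in TDM against Vehicle in place of 6. With the sebaceous score, 3 were called in TDM against Blank in place of 7. Vehicle against Blank called 1 with DESeq2 and 1 with only those 2 groups fitted, each time Elovl7. Leaving out 1 library at a time gave 6 to 8 called in TDM against Vehicle, 0 to 1 in Vehicle against Blank and 6 to 7 in TDM against Blank. The 8 came without Vehicle 7, the highest Vehicle library for Scd1 and Scd2, when both genes passed. Leaving out Vehicle 7 and Vehicle 8 together, the Vehicle libraries with the highest hair matrix and root sheath marker sums, also gave 8. Elovl7 passed between Vehicle and Blank without Blank 2, Blank 3, Vehicle 4, TDM 5, TDM 7 or TDM 9.

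Over all genes, the counts moved more: 4090 called in TDM against Vehicle became 2529 with the sebaceous score and 210 with the muscle score, 2793 against Blank became 222 with the sebaceous score, and 475 between Vehicle and Blank became 1433 with DESeq2, 2 with no filter, 1 and 0 with the sebaceous and muscle scores, 84 without Vehicle 7 and 8, and 0 to 1289 without 1 library. The causes were not tested.

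The replicate numbers do not pair the libraries (11 of 27 same-numbered pairs had a correlation over 0.1, from -0.399 to 0.382, and 3 libraries correlated best with their own number). With the replicate block, 7, 0 and 7 genes of the set were called in TDM against Vehicle (the added gene was Scd2), Vehicle against Blank and TDM against Blank, and 17 ratios passed, as without pairing. With a pseudocount of 5 the ratios gave 17, and without Vehicle 7 and 8 they gave 16. Spearman's rho gave 8 correlated pairs in place of 9. Depth limits only Scd4, at 0 to 18 reads per library.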
